A study of Danio rerio with 18 samples.

Results

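Open chromatin of hepatic stellate cells (HSCs) was compared with that of hepatocytes (HEPs) in livers injured with thioacetamide (TAA). The comparison used the ATAC-seq peak lists of the TAA groups, which together held 105894 of the 308216 peaks in the 6 lists of the series. A peak was called specific where no peak of the other list overlapped it by at least 1 bp, and shared otherwise. By this rule 21199 of 61245 HSC TAA peaks were HSC-specific (34.6%, 95% Wilson interval 34.2 to 35.0) and 40046 were shared. In the HEP TAA list 4291 peaks were HEP-specific (9.61%, 9.34 to 9.89) and 40358 were shared. These intervals cover counting error over peaks only, because peaks are not replicates.

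HSCs are the mesenchymal cells of the liver that store vitamin A, and after injury they become matrix-producing myofibroblast-like cells. HEPs are the parenchymal cells, which make most plasma proteins and metabolise compounds such as TAA into their toxic forms. In ATAC-seq a transposase cuts DNA that is free of nucleosomes, so a peak marks a promoter, an enhancer or another site that was open in at least some of the cells. Promoters of widely used genes are open in most cell types, while many enhancers are open in few.

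HSCs were EGFP-positive cells of Tg(hand2:EGFP) fish and HEPs were dsRed-positive cells of Tg(fabp10a:dsRed) fish, so cell type and transgenic line were the same factor. Endothelial cells (ECs), mCherry-positive cells of Tg(kdrl:ras-mCherry) fish, were used only to look peaks up. All fish were adult females of the AB background, and they received 6 intraperitoneal injections within 2 weeks of TAA at 500 mg/kg or of sterile water as the control. Each of the 18 libraries was made from 60000 sorted cells. Every group of 3 libraries gave 1 peak list, so no spread between libraries could be computed and no test is given. How many fish gave a library was not stated, and the depth behind each list is unknown. The paper gives only total numbers of fish, with fewer in control than under TAA. Some of the TAA fish died during treatment, so the TAA lists came from survivors. The score of a peak, its q-value as a negative log10 multiplied by 10, grows with depth, so an order between lists is read from ranks, and scores of different lists set side by side are given as a description. In a sorted population, fewer open cells and less open chromatin per cell cannot be told apart.

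The first question was how much of the difference came from the length of the lists. The HSC TAA list was longer and covered 12.2 Mb, against 8.26 Mb in the HEP TAA list. The bases covered by both lists came to 7.40 Mb, which was 60.8% of the HSC bases and 89.5% of the HEP bases. When the HSC TAA list was reduced by score to the length of the HEP TAA list, 19.2% of the HSC peaks and 18.5% of the HEP peaks were specific. With 20000 peaks in each list the shares were 16.1% for HSCs and 15.9% for HEPs, and with 5000 peaks both were 21.1%. Overlaps were almost 1 to 1, so lists of equal length must give nearly equal specific shares in both cell types, and these values say how large the difference was but not which cell type had more of it. Against the whole other list, 1.12% of the best 20000 HSC peaks and 0.525% of the best 20000 HEP peaks had no counterpart at all. With the best 10000 peaks the shares were 0.110% for HSCs and 0.0900% for HEPs. With the best 5000 they were 0% for HSCs and 0.0400% for HEPs. HSC peaks were searched in the shorter list here, so these shares depend on list length as well.

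**Figure D1:**
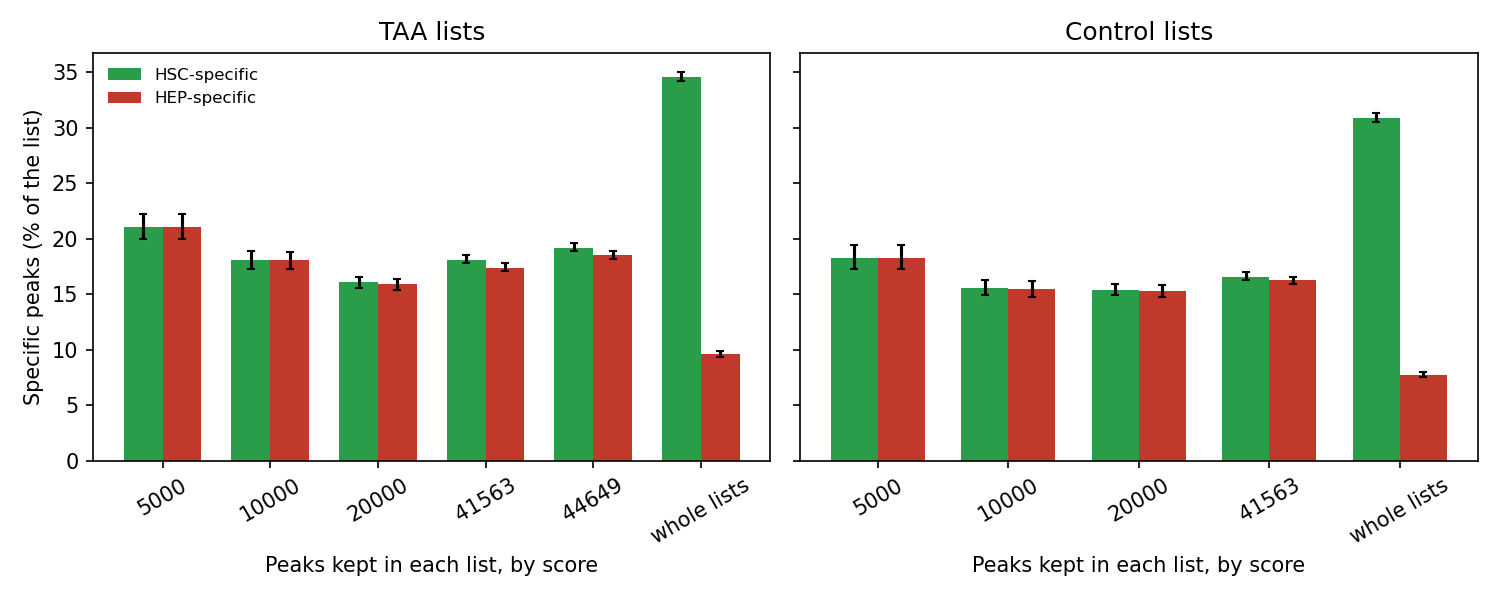
Specific peaks as a percentage of each list (y axis) against the number of peaks kept in each list by score (x axis), for the TAA lists (left) and the control lists (right), with HSCs in green, HEPs in red and 95% Wilson intervals as bars. At equal lengths the HSC and HEP bars nearly coincide, as overlaps of almost 1 to 1 require, and they part for the whole TAA lists (34.6% in HSCs and 9.61% in HEPs) and the whole control lists (30.9% in HSCs and 7.76% in HEPs).

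The control lists gave a similar picture. Of the HSC control peaks 30.9% were HSC-specific, and of the HEP control peaks 7.76% were HEP-specific. With 20000 peaks in each control list the shares were 15.4% in HSCs and 15.3% in HEPs. The specific shares after TAA were above those in control at each of the 4 equal lengths used in both conditions, by less than 3 percentage points.

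By strength, the specific peaks were nearly all weak. In the best 10% of the HSC TAA list 3 of 6125 peaks were HSC-specific (0.0490%), against 80.7% of the peaks in its last 10%. In the HEP TAA list 2 of 4465 peaks in the best 10% were HEP-specific (0.0448%), against 37.4% in the last 10%. Specific peaks within the better 50% of a list numbered 1806 in HSCs and 183 in HEPs, which was 8.52% of the HSC-specific and 4.26% of the HEP-specific peaks. The median score was 192 for HSC-specific and 759 for shared HSC peaks, and it was 144 for HEP-specific and 368 for shared HEP peaks. Of the best 10000 peaks, 11 in HSCs and 9 in HEPs were absent from the whole list of the other cell type. Of the best 5000 peaks, none in HSCs and 2 in HEPs were absent. The strongest open sites of each cell type after injury were therefore on the list of the other cell type as well.

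**Figure D2:**
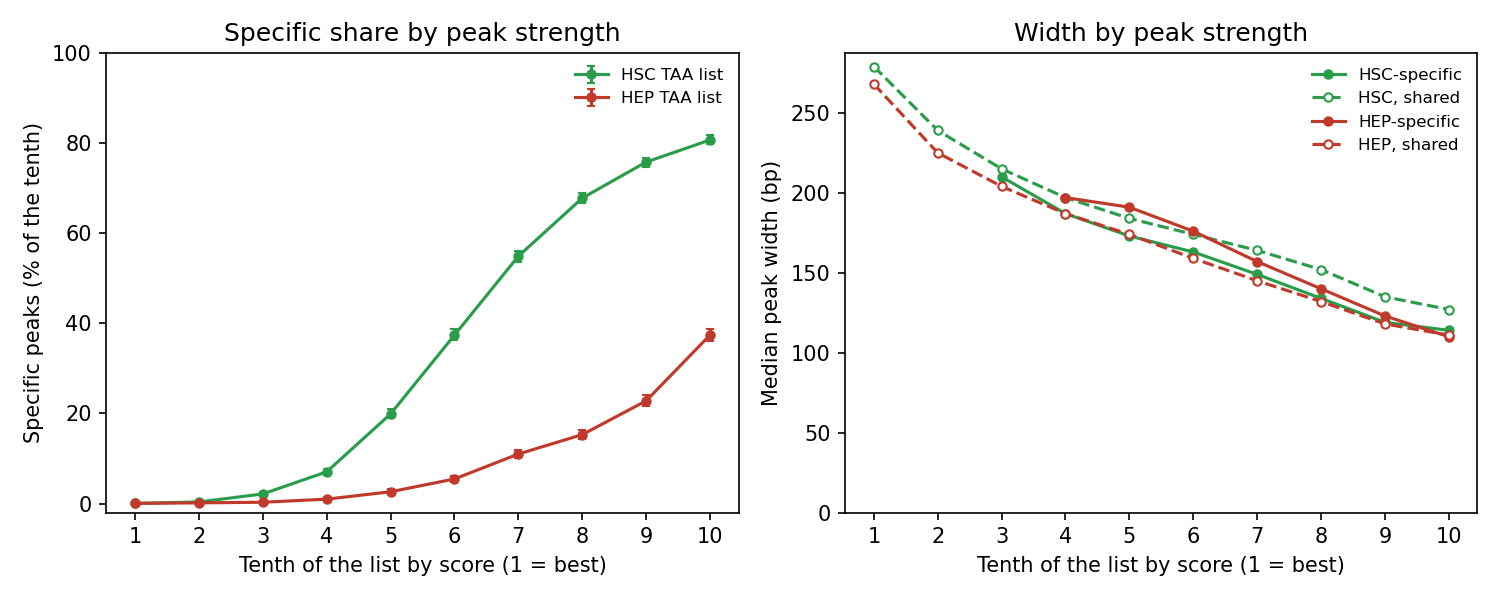
Left, specific peaks as a percentage of each step of 10% of the list by score (1 is the best), with HSCs in green, HEPs in red and 95% Wilson intervals as bars. Right, median peak width in bp by step for specific peaks (filled points, steps with at least 25 such peaks) and shared peaks (open points). Specific shares climb to 80.7% in HSCs and 37.4% in HEPs in the last step, while HSC-specific peaks lie below shared HSC peaks in width and HEP-specific peaks lie above shared HEP peaks in most steps.

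By width, specific peaks were narrow, but mainly as weak peaks are. The median width was 138 bp for HSC-specific and 206 bp for shared HSC peaks, and 131 bp for HEP-specific and 177 bp for shared HEP peaks. Specific peaks were the narrower class on 25 of 25 chromosomes in both cell types. Within steps of 10% by score the gap was small in HSCs, at 173 bp for specific and 184 bp for shared peaks in the step from 40% to 50% and 114 bp for specific and 127 bp for shared peaks in the last. In HEPs it turned round, with 191 bp for specific and 174 bp for shared peaks in the step from 40% to 50%, and 110 bp for specific and 111 bp for shared peaks in the last. Wide specific peaks were few. Peaks over 300 bp made up 1.55% of HSC-specific peaks (328) against 14.4% of shared HSC peaks, and 0.746% of HEP-specific peaks (32) against 6.88% of shared HEP peaks.

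Peaks at shared sites were wider in the HSC list. Among 39653 pairs in which 1 HSC peak met 1 HEP peak, the median width was 206 bp in HSCs and 177 bp in HEPs, and the HSC peak was the wider in 85.7% of pairs. The score moved with the width, since it was higher in HSCs in 90.4% of the same pairs (median 756 in HSCs and 370 in HEPs), and the part of depth in both was not tested. At regions open in all 4 lists the control lists had the same order, with 210 bp in HSCs and 189 bp in HEPs. Their summits lay close together, at a median distance of 9 bp, and within 50 bp in 93.0% of pairs. Scores ordered the pairs alike, with a Spearman correlation of 0.839 across the 39653 sites, which share the genome and the peak caller and are not replicates. A rank higher by more than 25 percentile points was seen in HSCs at 2385 pairs (6.01%) and in HEPs at 2625 pairs (6.62%). The difference exceeded 50 points at 149 pairs toward HSCs and 229 pairs toward HEPs.

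The pair that leaned most toward HSCs lay at chr8:22737774-22738020, with a score of 2193 in HSC TAA (rank 4419) and 125 in HEP TAA (rank 40699). The control lists held it too, with 1884 in HSCs (rank 3519) and 633 in HEPs (rank 11209). The pair that leaned most toward HEPs lay at chr10:13114482-13114641, with 117 in HSC TAA (rank 56735) and 1294 in HEP TAA (rank 3542). In control the order of its ranks was the opposite, with 1992 in HSCs (rank 3065) and 661 in HEPs (rank 10690). A HEP-specific peak 2697 bp farther on, at chr10:13117339-13117543, was absent from HSC TAA although the HSC control list gave it a score of 1061.

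To determine which differences remained after injury, specific TAA peaks were looked up in the control lists of both cell types. Of the 21199 HSC-specific TAA peaks, 5663 (26.7%, 26.1 to 27.3) were in the HSC control list and not in the HEP control list. They set HSCs apart from HEPs in both conditions. From ECs they did so only in part, since EC TAA held 65.7% and EC control 25.3% of these 5663 peaks. A further 2730 of the HSC-specific TAA peaks (12.9%) were in both control lists, 1045 (4.93%) were in the HEP control list only, and 11761 (55.5%) were in neither. Of the 4291 HEP-specific TAA peaks, only 226 (5.27%, 4.64 to 5.98) were in the HEP control list alone. Another 1480 (34.5%) were in both control lists, 1305 (30.4%) were in the HSC control list only, and 1280 (29.8%) were in neither. In the whole lists HEP-specific TAA peaks were thus more often HSC-specific than HEP-specific before injury. They were found in the HSC control list (64.9%) more often than in the HEP control list (39.8%), and this order held on 25 of 25 chromosomes. Shared HEP peaks had the same order, with 94.1% in HSC control and 84.2% in HEP control, so it was not particular to specific peaks. It was not seen among the 183 HEP-specific peaks in the better 50% of the HEP TAA list. Of these, 71.0% were in HSC control and 72.7% in HEP control. The HSC control list was also the longer, with 55293 peaks against 41563 in the HEP control list.

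List length bore on these shares as well. With 41563 peaks in each list, the length of the shortest of the 6 lists, the share already specific to the same cell type in control was 19.8% for HSC-specific and 14.0% for HEP-specific TAA peaks. Of the HEP-specific peaks 14.3% (13.5 to 15.1) had then been in the HSC control list only, and 14.0% (13.2 to 14.8) in the HEP control list only. The excess of the HSC control list seen with whole lists was thus not seen at this length. With 20000 peaks the share already specific to the same cell type in control was 17.7% for HSC-specific (16.4 to 19.0) and 16.1% for HEP-specific peaks (14.9 to 17.5). At that length 17.2% of HSC-specific TAA peaks had been in the HEP control list only, and 17.8% of HEP-specific TAA peaks had been in the HSC control list only. At that length peaks that kept their side and peaks that stood on the opposite side before injury were about equally frequent.

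**Figure D3:**
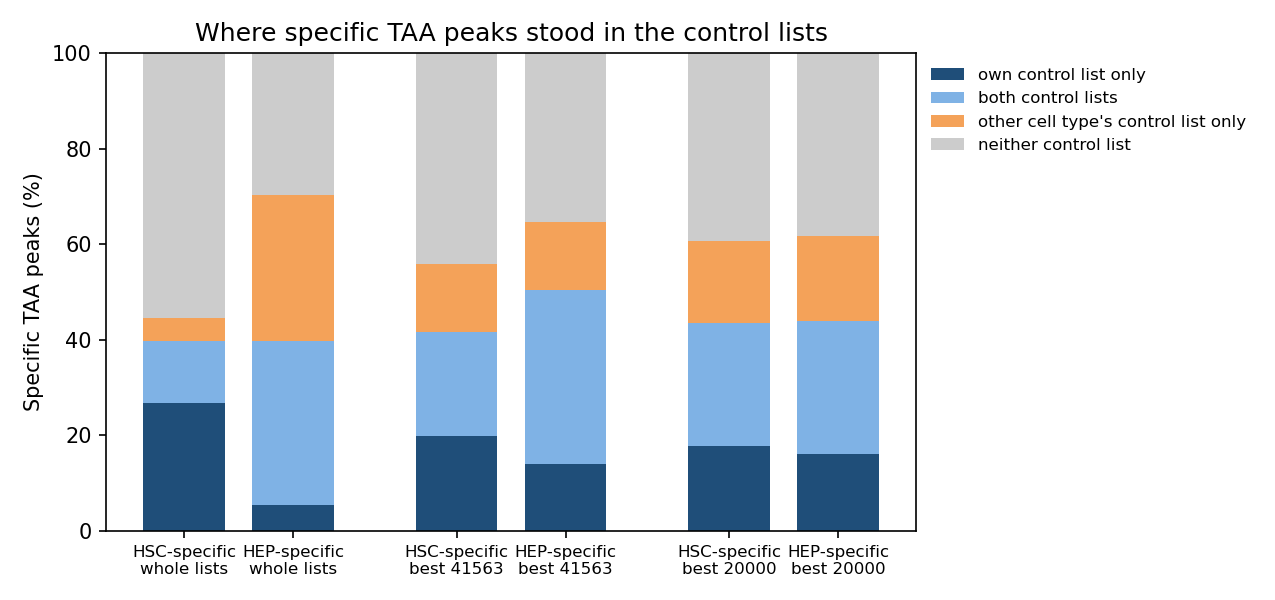
Stacked percentages of HSC-specific and HEP-specific TAA peaks by the control lists that also held them, for whole lists and for lists reduced to their best 41563 or best 20000 peaks. The dark blue share (own control list only) is 26.7% for HSCs and 5.27% for HEPs in whole lists, and 17.7% for HSCs and 16.1% for HEPs at 20000 peaks.

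The same held in the other direction of reading. Of 17087 peaks that were HSC-specific in control, 5714 (33.4%) were in the HSC TAA list alone, 4736 (27.7%) in both TAA lists, 1302 (7.62%) in the HEP TAA list alone and 5335 (31.2%) in neither. Of 3227 peaks that were HEP-specific in control, 226 (7.0%) were in the HEP TAA list alone, 776 (24.0%) in both TAA lists, 1060 (32.8%) in the HSC TAA list alone and 1165 (36.1%) in neither. With 20000 peaks in each list, 18.5% of control HSC-specific peaks stayed in the HSC TAA list alone and 18.3% were in the HEP TAA list alone. For control HEP-specific peaks, 16.8% stayed in the HEP TAA list alone and 18.4% were in the HSC TAA list alone.

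When the peaks of the 4 lists were merged into 72752 regions, 32951 (45.3%) were open in both cell types and both conditions. Within these 4 lists, which leave out ECs, 5625 regions (7.73%) were open only in HSCs in both conditions. Only in HEPs in both conditions were 223 regions (0.307%) open. Regions in the HSC list alone after TAA but in the HEP list alone in control numbered 1028, and the opposite change of side was seen at 1295 regions.

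Strong peaks were looked up separately, because the weak end of a list depends most on depth. Of the best 20000 HSC TAA peaks 224 (1.12%) were absent from the whole HEP TAA list, and of the best 20000 HEP TAA peaks 105 (0.525%) were absent from the whole HSC TAA list. Among the 224 HSC peaks 47 (21.0%, 16.2 to 26.8) were in the HSC control list alone, 138 (61.6%) in both control lists and 14 (6.25%) in the HEP control list alone. Among the 105 HEP peaks 21 (20.0%, 13.5 to 28.6) were in the HEP control list alone, 54 (51.4%) in both control lists and 16 (15.2%) in the HSC control list alone. Most strong peaks specific after TAA were therefore on both control lists. About 1 in 5 stood on the same side between HSCs and HEPs in both conditions. Unlike the specific peaks of the lists cut to 20000, the strong HSC peaks kept their side (47) more often than they changed it (14), while in HEPs the counts were close (21 and 16). These look-ups used whole control lists of unequal length, with 55293 peaks in HSCs and 41563 in HEPs. The part of list length in these counts was not tested.

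Differences in rank were followed in the same way at 32272 regions that had 1 peak in each of the 4 lists. The difference in rank between HSCs and HEPs after TAA had a Pearson correlation of -0.0206 and a Spearman correlation of -0.0369 with that difference in control. These regions are described and not tested, and the 4 lists in the 2 differences are separate. Of 1911 regions ranked over 25 points higher in HSCs after TAA, 50.4% were ranked higher in HSCs in control, the same share as among all 32272 regions (50.4%). Of 2131 regions ranked over 25 points higher in HEPs after TAA, 44.1% were ranked higher in HEPs in control, against 49.6% of all regions. The Spearman correlation of scores was 0.841 between HSC TAA and HEP TAA, 0.847 between HSC TAA and HSC control, 0.852 between HEP TAA and HEP control, and 0.859 between HSC control and HEP control. Between lists that differed in both, it was 0.849 for HSC TAA and HEP control and 0.855 for HEP TAA and HSC control. At sites open in all 4 lists, ranks were as similar between cell types as between conditions of 1 cell type, and as similar where both differed.

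The lists of ECs set the 2 classes of specific peaks apart. Of the HSC-specific TAA peaks 53.5% (52.9 to 54.2) were in the EC TAA list and 19.3% (18.8 to 19.9) in the EC control list. The HEP-specific TAA peaks had the opposite order, with 15.5% (14.4 to 16.6) in the EC TAA list and 64.9% (63.4 to 66.3) in the EC control list. Shared HSC peaks were found at 93.0% in EC TAA and 62.2% in EC control, and shared HEP peaks at 93.0% in EC TAA and 62.0% in EC control. HEP-specific peaks were thus on the EC control list as often as shared peaks were, but rarely on the EC TAA list. On 25 of 25 chromosomes EC TAA held a larger share of HSC-specific than of HEP-specific peaks, and EC control held a larger share of HEP-specific than of HSC-specific peaks.

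The contrast was present in the weaker 50% of the lists, which held most specific peaks. There EC TAA held 50.1% of HSC-specific and 14.6% of HEP-specific peaks, and EC control held 18.7% of HSC-specific and 65.2% of HEP-specific peaks. In the better 50% of the lists EC TAA held 90.7% of the 1806 HSC-specific and 33.9% of the 183 HEP-specific peaks. EC control held 26.1% of these HSC-specific and 56.3% of these HEP-specific peaks. For HEP-specific peaks the order of the EC lists was lost among the strongest, which were few. In the step from 20% to 30% both shares were 53.8% (of 13 peaks). In the step from 30% to 40% EC TAA held more of the 44 HEP-specific peaks than EC control did (40.9%). In the step from 40% to 50% the shares were 24.8% in EC TAA and 64.1% in EC control (of 117 peaks). In the last 10% of the HEP TAA list 12.5% of specific peaks and 78.1% of shared peaks were in EC TAA, while 62.8% of specific and 36.2% of shared peaks were in EC control. In the last 10% of the HSC TAA list 22.5% of specific peaks and 32.7% of shared peaks were in EC TAA, while 16.3% of specific and 60.3% of shared peaks were in EC control. With 41563 peaks in each list, EC TAA held 59.0% of HSC-specific and 21.9% of HEP-specific peaks, and EC control held 19.8% of HSC-specific and 53.4% of HEP-specific peaks. With 20000 peaks the gap was smaller, with 57.1% of HSC-specific and 31.2% of HEP-specific peaks in EC TAA, and 18.2% of HSC-specific and 36.3% of HEP-specific peaks in EC control.

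In control the order differed. Of the peaks HSC-specific in control, 50.2% were in EC TAA and 39.6% in EC control. Of the peaks HEP-specific in control, 54.2% were in EC TAA and 26.6% in EC control. The EC control list thus held more of the HSC-specific than of the HEP-specific peaks in control, and fewer after TAA. Depth and quality of single libraries are not in the lists, and their part in this pattern was not tested.

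**Figure D4:**
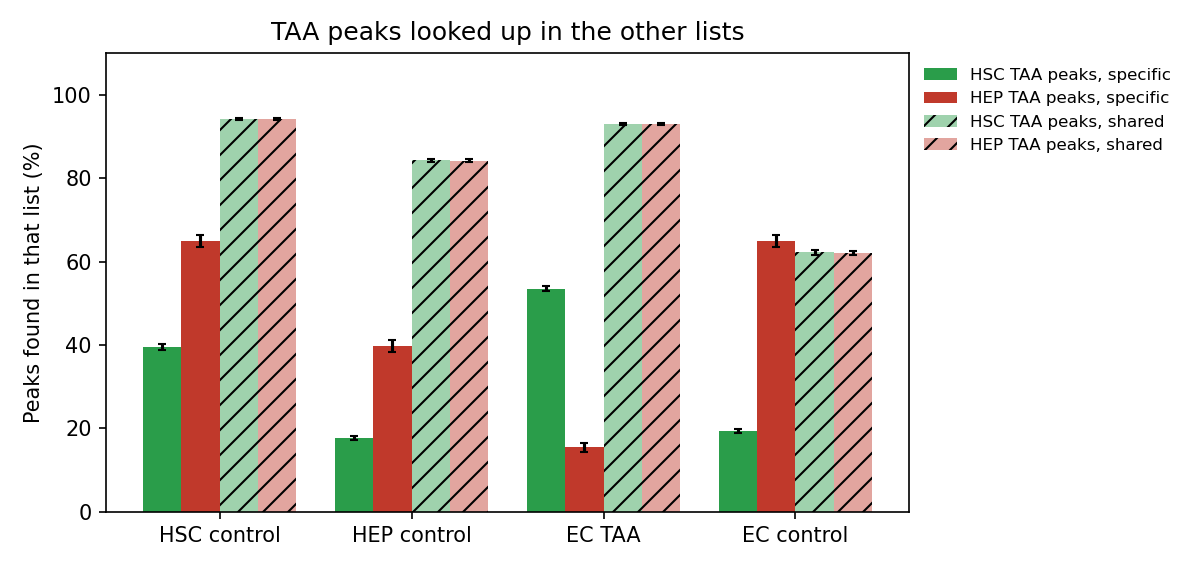
Percentage of HSC-specific, HEP-specific, shared HSC and shared HEP TAA peaks (y axis) that overlapped a peak of 4 other lists by at least 1 bp (x axis), with 95% Wilson intervals as bars. HEP-specific peaks stand at 64.9% in HSC control and 64.9% in EC control but at 15.5% in EC TAA, where HSC-specific peaks reach 53.5%.

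The peaks found in no other list were 6346 of the HSC-specific (29.9%) and 691 of the HEP-specific TAA peaks (16.1%). Among shared peaks the corresponding shares were 0.976% in HSCs and 0.979% in HEPs. In the better 50% of the lists only 53 HSC-specific peaks (2.93%) and 12 HEP-specific peaks (6.56%) were in no other list. HSC-specific peaks that were in neither control list had a median score of 160 and a median width of 126 bp, against 230 and 147 bp for those in the HSC control list alone.

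By position, the specific peaks were spread along the genome. The HSC-specific share lay between 32.0% on chromosome 19 and 36.8% on chromosome 15, and the HEP-specific share between 6.12% on chromosome 25 and 12.0% on chromosome 4. The HSC share was the larger on 25 of 25 chromosomes. The HSC list was the longer on each of them, and with overlaps almost 1 to 1 this order follows from list length. Within 1 Mb of a chromosome end 33.4% of HSC and 9.14% of HEP peaks were specific, and over 5 Mb from an end 34.6% of HSC and 9.48% of HEP peaks were. A stretch of chromosome 4 stood out. Beyond 27 Mb, on the repeat-rich long arm, 42.1% of HSC peaks (261 of 620, 38.3 to 46.0) and 21.4% of HEP peaks (99 of 462, 17.9 to 25.4) were specific, against 34.4% of HSC and 8.10% of HEP peaks on the rest of that chromosome. In HEPs this included the better 50% of the list, where 17 of 179 peaks beyond 27 Mb were specific (9.50%), against 6 of 558 up to there (1.08%). In HSCs the specific share was 7.73% in the better 50% (16 of 207) beyond 27 Mb and 5.11% up to there, and in the weaker 50% it was lower beyond 27 Mb (59.3%) than up to there (64.7%), so the HSC excess was not seen in both strength classes.

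**Figure D5:**
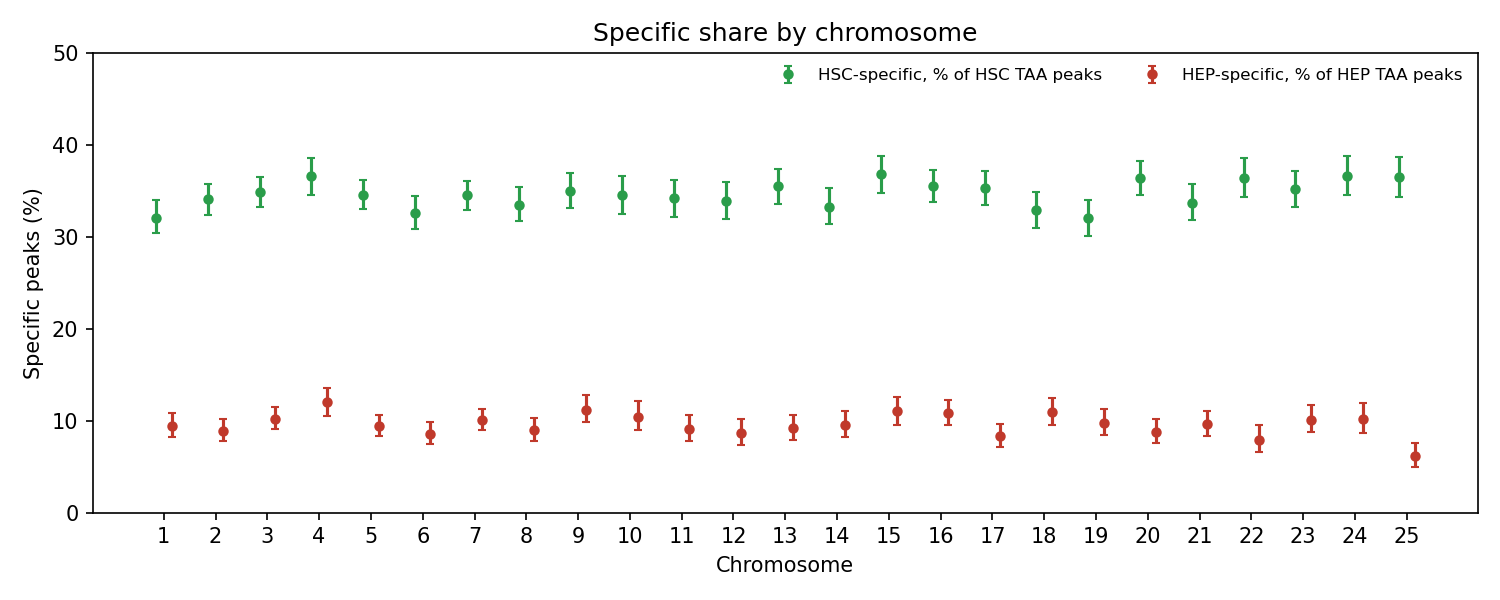
Specific peaks as a percentage of the HSC TAA peaks (green) and of the HEP TAA peaks (red) on each of the 25 chromosomes (x axis), with 95% Wilson intervals as bars. HSC shares stay between 32.0% and 36.8%, and HEP shares between 6.12% and 12.0%, with the highest HEP share on chromosome 4.

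Specific peaks were not mere edges of peaks in the other list. The nearest peak of the other list was within 500 bp for 12.8% of HSC-specific and 8.65% of HEP-specific peaks, and the median distance to it was 6580 bp in HSCs and 6290 bp in HEPs. Shared peaks overlapped deeply, with a median of 86.0% of an HSC peak and 100% of a HEP peak covered. Few peaks lay near the rule's limit. An overlap of 1 to 10 bp made 5 HSC and 4 HEP peaks shared, and 4 HSC-specific and 4 HEP-specific peaks had a peak of the other list within 10 bp. The median distance to the next peak of the same list was 6920 bp for specific and 5290 bp for shared peaks in HEPs. In HSCs it was 4400 bp for specific and 3650 bp for shared peaks, but with the HSC list reduced to the length of the HEP list the order turned round, to 4500 bp for specific and 4800 bp for shared peaks.

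Some specific peaks lay side by side. The 100 kb window with the most HSC-specific peaks was chr14:46000001-46100000, where 14 of 21 HSC peaks were specific, and it held a run of 11 such peaks with no other peak of either list between them, over 21.4 kb at chr14:46029591-46050985. Runs of 5 or more numbered 249 in HSCs and 7 in HEPs. The longest run of HEP-specific peaks, 9 in a row over 406 kb, lay on chromosome 4 at chr4:75872830-76278417. Single peaks outside any run made up 42.5% of the HSC-specific and 75.4% of the HEP-specific peaks. Specific peaks were 34.6% of the HSC and 9.61% of the HEP list, and runs become more frequent as that share grows. The number of runs that these shares alone would give was not computed.

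The 5 best-scored HSC-specific peaks were all open in control HSCs too. The first, chr24:9179499-9179705, had a score of 2059 (rank 5138 of 61245) in HSC TAA and 1572 in HSC control, and was in no HEP or EC list. The third, chr24:11138530-11138786, had 1909 in HSC TAA and 1753 in HSC control, and it too was in no HEP or EC list. These sites on chromosome 24, about 2 Mb apart, marked HSCs in both conditions. The fifth, chr3:15439341-15439589, had 1875 in HSC TAA and 1449 in HSC control, and 226 in EC control. The other 2 were less exclusive. At chr17:17704916-17705176 the score was 1966 in HSC TAA, 634 in HSC control and 94 in HEP control, with 1391 in EC TAA and 776 in EC control. At chr17:50474685-50474896 it was 1892 in HSC TAA, 910 in HSC control and 108 in HEP control, with 877 in EC TAA. In HEP control both sites were among the weakest peaks.

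Each of the 5 best-scored HEP-specific peaks was in at least 1 list of another cell type. The first, chr13:42811192-42811511, had a score of 1377 (rank 3011 of its list) in HEP TAA and was absent from HEP control and both EC lists. In HSC control it had 103 and was among the weakest peaks (rank 52600 of 55293). At chr7:18650705-18650957 the score was 1347 in HEP TAA and 410 in HEP control, with 1044 in EC TAA and no peak in either HSC list. At chr4:75511563-75511772, on the long arm of chromosome 4, it was 1043 in HEP TAA and 410 in HEP control, with 1457 in EC control. The fourth was the site on chromosome 10 described above, with 973 in HEP TAA, 1061 in HSC control and 887 in HEP control. The fifth, chr2:40311017-40311271, had 926 in HEP TAA, 821 in HSC control, 824 in HEP control and 1479 in EC TAA. The last 2 of these sites were open in HSCs and HEPs in control and in ECs after TAA, and they lacked a peak in HSC TAA and in EC control.

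Gene starts were placed on chromosome 1 only, for 605 genes, taken from gene positions listed with the study's promoter peaks. That list holds genes with a nearby HSC or HEP peak and is not a full annotation. The shares below are therefore shares of peaks near these 605 starts. A start could enter the list through a peak of either cell type, and the part of this choice in the difference between shared and specific peaks was not tested. Within 3 kb of a start lay 24.0% of HSC-specific peaks (202 of 840) and 36.8% of shared HSC peaks, and 15.7% of HEP-specific peaks (29 of 185) and 36.8% of shared HEP peaks. Within the weaker 50% of the lists the shares were 24.1% for specific and 26.2% for shared peaks in HSCs, and 16.3% for specific and 26.5% for shared peaks in HEPs. Within the better 50% they were 23.6% for specific (17 of 72, 15.3 to 34.6) and 40.7% for shared peaks in HSCs. In HEPs 0 of 7 specific peaks (Wilson interval 0 to 35.4) and 44.5% of shared peaks were near a start. Specific peaks were thus less often near one of these listed starts, except for weak HSC peaks, where the classes differed by less than the counting error.

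Each peak within 3 kb of a start was counted for its nearest listed start only. By this count 499 of the 605 genes (82.5%) had a peak of both lists, 72 (11.9%) of the HSC list only and 16 (2.64%) of the HEP list only. Where starts lie close together, a gene can lose a peak to its neighbour, and overlapping HSC and HEP peaks can fall to different genes. LIAS, for example, was counted with a shared HEP peak and no HSC peak. By the same count 179 genes had an HSC-specific peak and 29 genes a HEP-specific peak. Of 55 HEP markers looked for, 2 (fga and c3a.1) matched a symbol of these genes exactly, and their start peaks were in both TAA lists. fga, which encodes the fibrinogen alpha chain of plasma, had a peak over its start with a score of 2149 (rank 4636 of 61245) in HSC TAA and 1321 (rank 3377 of the HEP list) in HEP TAA, and an HSC-specific peak 1379 bp from the start with a score of 224. c3a.1, a complement C3 gene, had 1926 in HSC TAA and 836 in HEP TAA. From the list of TAA metabolism genes, cyp3a65, a drug-metabolising cytochrome P450, had 1924 in HSC TAA and 1145 in HEP TAA. All of these start peaks were in both control lists as well, where fga had 1504 in HSCs and 1644 in HEPs. The HSC lists thus held open chromatin at the starts of these genes of HEP function in both conditions. Open HEP genes within HSCs and HEPs carried into the EGFP-positive sort cannot be told apart here. In ECs the start peak of fga had 1747 after TAA and 86 in control, and those of c3a.1 and cyp3a65 were present after TAA (1484 and 1214) and absent in control.

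None of the 39 HSC and mesenchyme markers looked for matched a symbol of the 605 genes exactly. Many of these symbols were in upper case, so a marker written otherwise would have been missed. The HSC label could therefore not be set against its own markers, and the starts of hand2, fabp10a and kdrl were not analysed here. Of the markers and pathway genes listed, jag1a, a Notch ligand used as a biliary marker, had a shared start peak with 1335 in HSC TAA (rank 10824) and 285 in HEP TAA (rank 24795), plus an HSC-specific peak 1271 bp away with a score of 300. actb1, a cytoplasmic actin gene used as a housekeeping control, had shared peaks near its start and an HSC-specific peak 292 bp away with a score of 544, which was in HSC control (434) and not in HEP control.

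The other genes named here were chosen after their values were seen, as examples among the better-scored specific peaks over or near a start, and they are not a ranking. EDNRA, the endothelin A receptor, which drives contraction in smooth muscle and related cells, had an HSC-specific peak over its start at chr1:36612516-36612724, with a score of 740 in HSC TAA, 276 in HSC control and 179 in HEP control. The EC TAA list held this site too, with 506. RNF24, a RING finger gene, had an HSC-specific start peak with 976 in HSC TAA that was in neither HSC nor HEP control, but in EC TAA (309) and EC control (297). EFNB2, which encodes the Eph receptor ligand ephrin-B2, had an HSC-specific peak 71 bp from its start with 714 in HSC TAA, 250 in HSC control and 161 in HEP control, and its best rank, 4010 (score 1364), in EC control. LTV1, a ribosome assembly factor, had 647 in HSC TAA, 197 in HSC control, 256 in HEP control and 302 in EC TAA. Except for RNF24, these sites had weak peaks in HEP control and none in HEP TAA.

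HEP-specific peaks near gene starts on chromosome 1 all lay in the weaker 50% of the HEP TAA list. The best-scored of them, 2648 bp from the start of CNN1, a calponin gene of smooth muscle, had 296 in HEP TAA, 108 in HSC control and 138 in HEP control. A peak 923 bp from the start of IRS2, an adaptor of insulin signalling, had 224 in HEP TAA and 217 in HSC control and was absent from HEP control. In ECs it had 194 after TAA and 218 in control. A peak 28 bp from the start of CRYAA, a lens crystallin gene, had 170 in HEP TAA, 309 in HEP control and 230 in EC TAA, and was in no HSC list. Peaks over the starts of eif5b, a translation initiation factor, and of MXRA5 had 176 and 161 in HEP TAA and were in no other list.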

How the data were processed

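ATAC-seq was performed on 18 libraries of sorted zebrafish liver cells, 3 per cell type and treatment. The authors aligned reads to GRCz11 with Bowtie2 2.3.4.3, kept short nucleosome-free fragments, computed MACS2 2.1.0.2 p-value tracks per replicate, combined the replicates of a group by Fisher's method, called 1 list per group and discarded peaks over low-complexity sequence. The deposited score of a peak is its q-value as a negative log10, multiplied by 10 and capped at 3240. Lists were compared as deposited with Python 3.11.15, numpy 2.4.6 and pandas 2.3.3, by overlaps of at least 1 bp. Wilson 95% intervals came from scipy 1.17.1, and overlap routines were checked on simulated peaks. Ties in score were ranked by position, and coordinates count from 1. Libraries were grouped by their labels. Named sites are the 5 best-scored specific peaks of each list. The plan was to name list genes with a specific peak of the better 50% within 3 kb of a start, which only actb1 met. The other list members among the 605 genes, fga, c3a.1, cyp3a65 and jag1a, were named as well. Further genes were chosen after their values were seen. The comparison and the gene lists were chosen with earlier results of these data known. Gene starts were read only for chromosome 1, as positions and gene identifiers from the study's list of promoter peaks, and 590 of 605 identifiers matched a symbol. No GRCz11 genome was used, so sequence, motifs and GC content were not analysed here. Alternatives were equal list lengths, the better 50%, stricter overlaps, summits, a 500 bp margin and the numbered chromosomes. Depth per library is unknown.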

Additional observations from a re-analysis of the deposited data

How the results depend on the processing

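The HSC-specific share of the TAA lists was above the HEP-specific share under all 10 settings, the reported one included, but both depended on list length, and lists of equal length give nearly equal shares because overlaps were almost 1 to 1. With the length of the HEP TAA list they were 19.2% for HSCs and 18.5% for HEPs, with 20000 peaks 16.1% for HSCs and 15.9% for HEPs, and with 41563 peaks, a length chosen after seeing the data, 18.1% for HSCs and 17.4% for HEPs. With the better 50% of each list they were 32.1% for HSCs and 6.54% for HEPs, and with the better 50% against the whole other list 5.90% for HSCs and 0.820% for HEPs. Overlap of at least 50% of both peaks gave 37.5% for HSCs and 14.3% for HEPs, a summit inside the other peak 35.1% for HSCs and 9.99% for HEPs, and no other peak within 500 bp 30.2% for HSCs and 8.78% for HEPs.

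The share of specific TAA peaks that were specific to the same cell type in control was likewise higher in HSCs than in HEPs under all 10 settings. It was 23.7% in HSCs and 11.4% in HEPs with that length, where the shorter HEP control list was kept whole, 17.7% in HSCs and 16.1% in HEPs with 20000, and 19.8% in HSCs and 14.0% in HEPs with 41563. It was 30.6% in HSCs and 9.18% in HEPs with the better 50% of each list, 31.4% in HSCs and 16.9% in HEPs with the better 50% against whole lists, and 26.0% in HSCs and 10.1% in HEPs with overlap of at least 50% of both peaks. Without another peak within 500 bp it was 28.4% in HSCs. All peaks lay on the 25 numbered chromosomes, so that alternative changed nothing. The causes of these shifts were not tested beyond the shorter lists themselves.

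With both TAA lists at the length of the HEP list the median width of specific peaks was 158 bp in HSCs and 134 bp in HEPs, and 60.9% of HSC peaks and 61.7% of HEP peaks in the last 10% were specific. The median distance to the next HSC peak, longer for specific peaks in the whole list, was then 4500 bp for specific and 4800 bp for shared peaks. Within 1 kb of a listed gene start lay 16.3% of HSC-specific and 8.11% of HEP-specific peaks. No paired analysis was possible because each group had 1 list made from its 3 libraries, and for the same reason no library could be left out. The motif window alternative was not run. Unknown depth limits every statement on the weak end of the lists.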
